A study of Mus musculus with 12 samples.

Results

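The comparison described here is of polysome RNA between Mettl14 conditional knockout limb buds and their controls, in 6 of the 12 libraries of the series and across all genes of the deposited table. Limb buds of mouse embryos at E12.5 (embryonic day) had the genotype Mettl14 flox/flox (cKO, conditional knockout) or Mettl14 wt/flox (cHet, the heterozygous control, which also carries 1 floxed allele). Cytoplasm was prepared from them and part of each lysate was kept as input, while sucrose gradient ultracentrifugation gave the polysome fractions. Each genotype and fraction has 3 libraries, which the labels call biological replicates. The Cre driver, its cell type and the deleted exons are not given in the sources used here, nor is pooling of embryos or litters, so p-values measure the spread between these libraries. The libraries are bulk, so fewer cells of a type and less RNA per cell cannot be told apart.

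Polysomes are mRNAs that carry several ribosomes, and RNA in these gradient fractions is read as RNA under translation. Mettl14 encodes the RNA-binding partner of the methyltransferase Mettl3, and together they write N6-methyladenosine (m6A), mostly in GGACT-like contexts, on nascent mRNA. Reader proteins of the Ythdf family bind the mark, and Ythdf2 in particular recruits mRNA decay factors. At this stage the limb mesenchyme condenses into cartilage under BMP, WNT, FGF and hedgehog signals. FPKM, reads scaled to the length of the gene model and to the assigned reads of the library, is the level used below. Differences are cKO minus cHet of log2(FPKM + 0.1), which understates changes of low genes.

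The polysome libraries held 10349912 to 24783880 assigned reads. Each of the 12 libraries was placed on the line from the mean cHet input profile (0) to the mean cHet polysome profile (1), over 13610 genes. The cHet polysome libraries lay at 1.03, 0.991 and 0.977, while the cKO polysome libraries lay at 0.4997, 0.818 and 0.927 in replicates 1 to 3. Input libraries of both genotypes lay between −0.028 and 0.146. All 3 cKO polysome libraries therefore lay lower on this line than any cHet polysome library, and cKO replicate 1 lay midway between the fractions. The line is drawn from the cHet libraries, so their groups average 0 and 1 by construction, which the cKO groups need not. On the first principal component of all 12 libraries, cHet polysomes lay at 53.8, 50.2 and 48.4 and cKO polysomes at 3.97, 35.5 and 45.0. The small gap of cKO replicate 3 was not tested. The comparison was made with all 6 libraries and again without cKO replicate 1, with 3 cHet and 2 cKO libraries. Since the cKO polysome libraries lay toward input, the median cHet polysome minus cHet input difference is given beside the gene groups below. The part of that shift in single genes was not tested, and a fit with library position as a covariate is given with the counts.

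**Figure D1:**
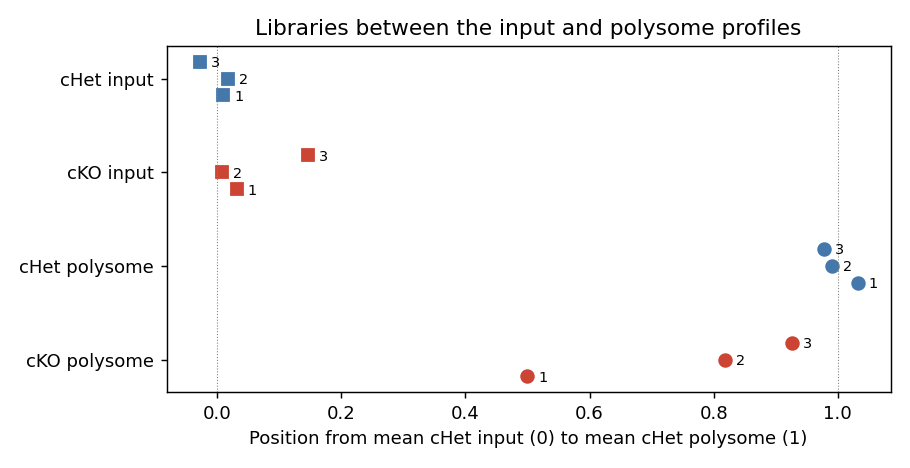
Position of each of the 12 libraries between the mean cHet input profile (0) and the mean cHet polysome profile (1), 1 point per library with its replicate number. The 3 cKO polysome libraries lie at 0.4997, 0.818 and 0.927, all below the cHet polysome libraries.

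With all 6 libraries, no gene passed the threshold of an adjusted p under 0.05 (limma, Benjamini-Hochberg, 0% of 12877 genes tested). The lowest adjusted p was 0.0780, while 2743 genes (21.3%) had an unadjusted p under 0.05. A fit of the recovered reads with voom weights also called 0, with 2839 genes under an unadjusted p of 0.05. The genotype groups did not overlap for 4046 genes (31.4%), 2309 of them higher in cKO (17.9%) and 1737 lower (13.5%). Of all genes tested 52.9% lay above 0, with a median of 0.02.

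Without cKO replicate 1, 160 of 12738 genes passed (1.26%), of which 100 were higher in cKO (0.785%) and 60 lower (0.471%). Groups did not overlap for 38.5% of all genes, higher in 21.9% and lower in 16.6%, an unadjusted p was under 0.05 for 20.6%, and 54.1% lay above 0. With scaling to the summed protein-coding FPKM, 191 were called higher and 72 lower. The count depended on single libraries: it was 7 without cHet replicate 1, 0 without cHet replicate 2, 416 without cHet replicate 3, 89 without cKO replicate 2 and 0 without cKO replicate 3. Leaving out cKO replicate 2 from the 6 libraries in place of replicate 1 gave 231 called genes, and leaving out cHet replicate 1 gave 1. A fit of the 5 libraries with library position as a covariate, chosen after seeing the data, called 0 genes. Both cKO libraries lay lower in position than every cHet library, so this fit cannot tell genotype from position. Adjusted p-values of the called genes lay between 0.0398 and 0.0499. The genes called higher differed by 0.60 to 2.49 with a median of 0.85, and the genes called lower by −0.62 to −4.29 with a median of −0.85. Of the 100 higher genes 93 were protein-coding and of the 60 lower genes 37, beside 88.9% of all genes tested. Tested genes needed an FPKM of at least 1 in at least 3 libraries, which cHet alone could reach and cKO alone could not.

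**Figure D2:**
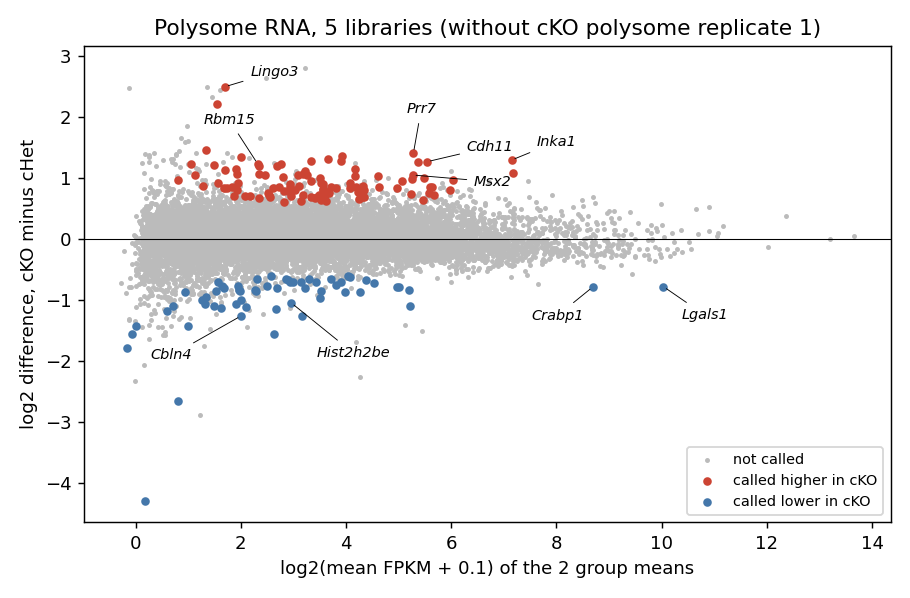
Difference between genotypes on polysomes (vertical axis, log2) against mean level (horizontal axis, log2 FPKM) for the 12738 genes tested without cKO replicate 1, with the 100 genes called higher in red and the 60 called lower in blue. The labelled genes Lingo3, Prr7, Inka1, Cdh11, Rbm15 and Msx2 lie above 1, and Crabp1 and Lgals1 are the most abundant of the labelled genes called lower.

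Mettl14 itself (ENSMUSG00000028114, mm10 chr3:123368297-123386108, minus strand, 11 exons) had 2.83, 3.07 and 3.02 in cHet and 2.73, 2.81 and 3.29 in cKO replicates 1 to 3 (FPKM). The groups overlapped, and the difference was −0.02 (SE 0.14, adjusted p = 0.954) with 6 libraries and 0.03 without cKO replicate 1. In input it had 4.09, 4.03 and 4.04 in cHet and 2.60, 3.32 and 1.26 in cKO, lower in all 3 cKO libraries, without passing (adjusted p = 0.295). Reads were counted over the whole gene model and the deleted exons are not given, so the polysome value is no check of the cKO labels. The other subunits of the writer complex are its catalytic partner Mettl3, the regulators Wtap, Virma, Zc3h13 and Cbll1, and the paralogous RNA-binding adaptors Rbm15 and Rbm15b that recruit the complex to RNA. Rbm15 (ENSMUSG00000048109, mm10 chr3:107325421-107333673, minus strand, 2 exons) had an FPKM of 2.75, 2.92 and 2.94 in cHet and 8.32, 5.89 and 7.96 in cKO replicates 1 to 3. Every cKO library was at least 2-fold above every cHet library, and Rbm15 rose (log2 difference 1.23 without cKO replicate 1, SE 0.15, adjusted p = 0.0398, and 1.32 with it). Its paralog Rbm15b had 37.2, 35.1 and 40.1 in cHet and 41.5, 48.6 and 47.1 in cKO replicates 1 to 3, also without overlap, with a difference of 0.36 that did not pass (adjusted p = 0.157). Of the 8 writer genes, 7 were above 0 with 6 libraries and 8 without cKO replicate 1, with medians of 0.34 and 0.31. Rbm15 alone passed, against 0.785% of all genes called higher without cKO replicate 1. The list's cHet polysome minus input median was −0.58.

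Among 13 m6A readers and erasers, Ythdf2, the reader that directs marked mRNAs to decay, had an FPKM of 13.98, 15.5 and 14.4 in cHet and 29.9, 21.8 and 24.1 in cKO replicates 1 to 3. The groups were apart and Ythdf2 rose without cKO replicate 1 (0.64, SE 0.12, adjusted p = 0.0487; 0.77 with it). Ythdf1 had 44.3, 39.3 and 56.5 in cHet and 86.3, 78.1 and 63.9 in cKO replicates 1 to 3, with no overlap and a difference of 0.61 (adjusted p = 0.115) that did not pass. The third family member Ythdf3 differed by 0.22 and the nuclear reader Ythdc1 by 0.33, neither passing. Of the 13, Ythdf2 alone passed without cKO replicate 1, against 0.785% of all genes called higher. The list median was 0.26 with 6 libraries and 0.07 without cKO replicate 1, beside 0.02 and 0.03 over all genes. The list's cHet polysome minus input median was −0.71.

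Among lists chosen with earlier results of these data known, the one with the most genes called higher was that of transmembrane proteins with leucine-rich repeats. These act in cell adhesion and axon guidance or, for Vasn, bind TGF-beta outside the cell. Of 35 listed genes 20 were tested, 5 rose without cKO replicate 1 and none fell, against 0.785% of all genes called higher and 0.471% called lower. Vasn (ENSMUSG00000039646, mm10 chr16:4639941-4650802, plus strand, 2 exons) had an FPKM of 7.80, 8.76 and 9.61 in cHet and 39.7, 22.1 and 20.3 in cKO replicates 1 to 3. It thus lay at 20 or more in every cKO library against less than 10 in every cHet library (log2 difference 1.27 without cKO replicate 1, SE 0.13, adjusted p = 0.0398, and 1.58 with it). Lrrc4b (ENSMUSG00000047085, mm10 chr7:44429018-44463351, plus strand, 3 exons), a synaptic adhesion protein, had 9.30, 7.78 and 7.74 in cHet and 23.5, 16.9 and 26.8 in cKO replicates 1 to 3. The groups again did not overlap (log2 difference 1.36 without cKO replicate 1, SE 0.19, adjusted p = 0.0398, and 1.41 with it). Lrrn2 had 4.35, 3.26 and 3.71 in cHet and 11.6, 6.69 and 11.3 in cKO replicates 1 to 3, and rose by 1.19 (adjusted p = 0.0487). Lrrn3 had 1.93, 2.17 and 2.71 in cHet and 5.21, 4.99 and 5.14 in cKO replicates 1 to 3, and rose by 1.14 (adjusted p = 0.0398). Lingo3 was low in every library, at 0.864, 0.471 and 1.32 in cHet and 6.92, 3.53 and 7.27 in cKO replicates 1 to 3, and had the largest difference of the named genes (2.49, SE 0.40, adjusted p = 0.0433). Of the 20 genes tested, 19 were above 0 in both fits, with medians of 0.56 and 0.496, and the groups did not overlap for 15 of them with 6 libraries, against 17.9% of all genes. Lingo1, a member outside the naming rule that did not pass, differed by 0.87 (adjusted p = 0.0742). The list's cHet polysome minus input median was 0.19, and among the called members it was −0.84 for Vasn, −0.25 for Lrrn3, 0.19 for Lrrn2 and 0.62 for Lrrc4b. In input the list's median difference between genotypes was 0.64. Many of these genes are expressed in nerve, and 15 neural and Schwann cell markers summed to 18.2 to 21.4 FPKM in cHet and 38.1, 23.3 and 26.6 in cKO replicates 1 to 3, a difference whose part in the result was not tested. None of the 15 was at 0 in all 6 libraries, and 8 were high enough to be tested.

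Classical cadherins hold cells together through calcium-dependent contacts. Of 15 cadherins and protocadherins tested without cKO replicate 1, 2 classical members were called higher, against 0.785% of all genes. Cdh11 (ENSMUSG00000031673, mm10 chr8:102632095-102785642, minus strand, 13 exons), the mesenchymal cadherin of condensing cells, had an FPKM of 23.3, 24.98 and 34.5 in cHet and 104, 64.5 and 66.0 in cKO replicates 1 to 3. All cKO libraries lay above all cHet libraries, and Cdh11 rose (log2 difference 1.26 without cKO replicate 1, SE 0.18, adjusted p = 0.0398, and 1.49 with it). Cdh3, a cadherin of epithelia such as the epidermis, had 9.07, 10.6 and 10.1 in cHet and 36.4, 16.8 and 18.8 in cKO replicates 1 to 3 and rose by 0.84 (adjusted p = 0.0398). Its values lie with those of the epidermal markers, described with the other cell types. Cdh2, the N-cadherin of condensations, had 3.98, 4.86 and 4.25 in cHet and 11.4, 5.46 and 7.30 in cKO replicates 1 to 3, with no overlap and a difference of 0.53 (adjusted p = 0.120) that did not pass. Of 16 cadherins and protocadherins tested with 6 libraries, 15 were above 0 (median 0.49), against 52.9% of all genes. Without cKO replicate 1, 13 of 15 were above 0 (median 0.29), against 54.1% of all genes. Their cHet polysome minus input median was −1.09, and cKO replicate 1, the library nearest to input, had the highest Cdh11, Cdh2 and Cdh3.

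In BMP signalling no ligand passed, and of the receptors 1 did. Gdf5, a ligand that patterns joints, had an FPKM of 17.2, 17.8 and 24.8 in cHet and 34.5, 25.2 and 25.1 in cKO replicates 1 to 3, with a difference of 0.35 (SE 0.17, adjusted p = 0.281) without cKO replicate 1 and 0.505 with it. The cKO libraries were all above the cHet libraries, but the lowest cKO and the highest cHet library were close. Acvr2b, a type II receptor for activins and BMPs, had 6.57, 6.66 and 6.97 in cHet and 11.4, 10.96 and 15.5 in cKO replicates 1 to 3 and rose (log2 difference 0.95 without cKO replicate 1, SE 0.15, adjusted p = 0.0435, and 0.88 with it). Bambi, a pseudoreceptor that dampens BMP and TGF-beta signals, had 25.7, 24.1 and 26.2 in cHet and 42.4, 41.6 and 60.4 in cKO replicates 1 to 3 and rose by 0.98 (SE 0.17, adjusted p = 0.0442). Both were well above the control spread in each cKO library. Msx2 (ENSMUSG00000021469, mm10 chr13:53466884-53473074, minus strand, 2 exons), a homeobox repressor induced by BMP in limb mesenchyme, had 23.8, 24.0 and 27.1 in cHet and 83.6, 46.8 and 56.6 in cKO replicates 1 to 3. Each cKO library held at least 1.5 times the highest cHet value, and Msx2 rose (log2 difference 1.04 without cKO replicate 1, SE 0.14, adjusted p = 0.0398, and 1.28 with it). The inhibitory Smad7 had 7.65, 6.52 and 7.95 in cHet and 10.8, 10.6 and 10.2 in cKO replicates 1 to 3 and a difference of 0.499 that did not pass (adjusted p = 0.0855). None of the Id genes on the list, immediate BMP targets, passed. Of 28 tested genes of the pathway 3 rose and none fell, against 0.785% of all genes called higher, with a median of 0.07 beside 0.03 over all genes. Their cHet polysome minus input median was 0.18.

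**Figure D3:**
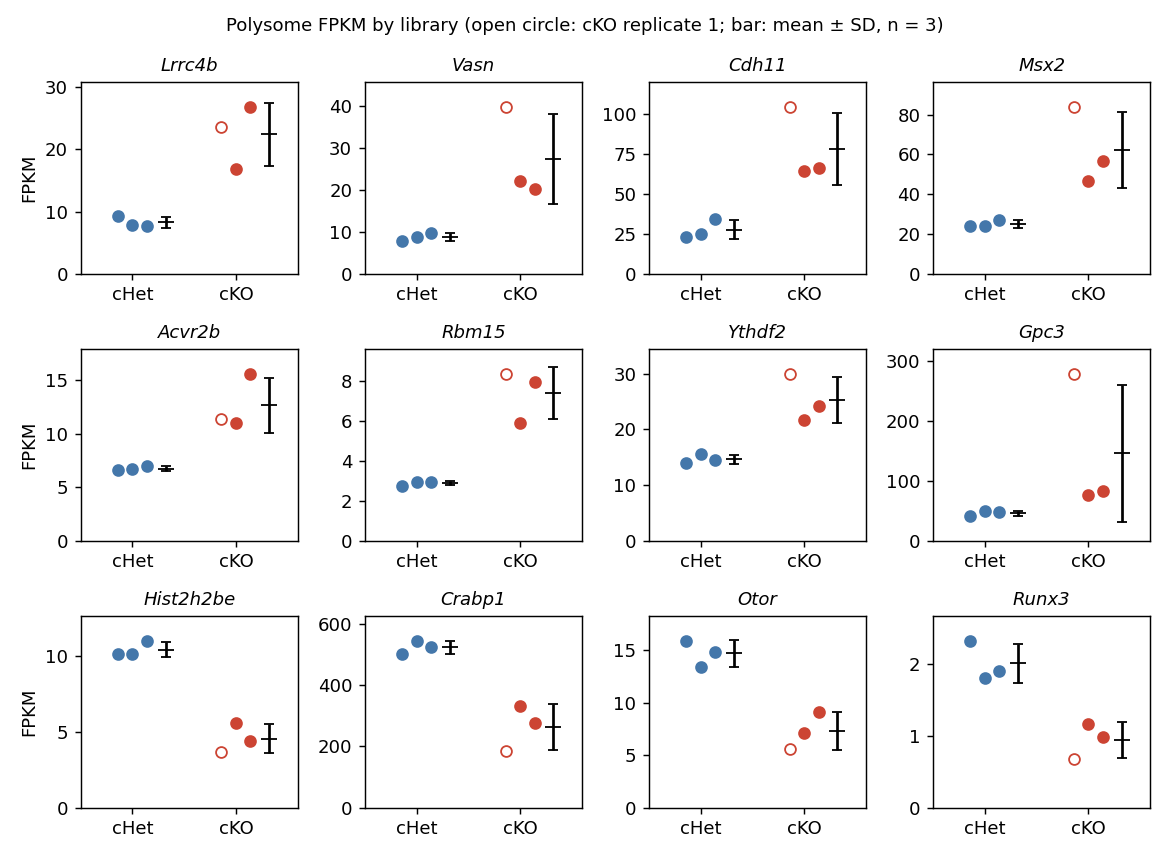
FPKM of 12 genes in each of the 6 polysome libraries (1 point per library, vertical axes start at 0), with cKO replicate 1 as an open circle and bars for the mean ± SD (n = 3). The groups do not overlap for any of the 12, and Runx3 is the only one shown that did not pass without cKO replicate 1.

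Other factors of limb patterning moved in both directions. Dlx6, a distal-less homeobox factor of the limb, had an FPKM of 5.996, 5.96 and 6.01 in cHet and 2.58, 4.11 and 3.42 in cKO replicates 1 to 3 and fell by 0.66 (adjusted p = 0.0498). Its neighbour and paralog Dlx5, outside the naming rule, differed by 0.17 and did not pass. Tbx5, which specifies the forelimb, had 47.0, 48.2 and 52.7 in cHet and 78.7, 66.4 and 77.8 in cKO replicates 1 to 3, with a difference of 0.54 (adjusted p = 0.0757) that did not pass. Of 28 patterning genes tested, Msx2 rose and Dlx6 fell, against 0.785% of all genes called higher and 0.471% called lower. The list median was 0.20 (cHet polysome minus input 0.16). Of the genes outside the lists, Cited2 and Bcl9, chosen after their values were seen, are a transcriptional co-regulator and a WNT co-activator. Cited2 had 33.97, 34.9 and 34.6 in cHet and 84.3, 50.9 and 57.1 in cKO replicates 1 to 3 and rose by 0.64 (adjusted p = 0.0487). Bcl9 had 15.1, 14.8 and 16.2 in cHet and 27.4, 24.4 and 25.1 in cKO replicates 1 to 3 and rose by 0.68 (adjusted p = 0.0435). The cHet values of both genes varied little. No gene of the WNT list passed among 43 tested, although 32 were above 0 (median 0.22, cHet polysome minus input −0.02). Dkk2, a secreted inhibitor of that list, had 22.6, 22.1 and 24.8 in cHet and 15.5, 16.1 and 13.99 in cKO replicates 1 to 3 (difference −0.62, adjusted p = 0.0576). The receptor Fzd10 had 39.6, 34.7 and 40.2 in cHet and 75.6, 55.8 and 72.1 in cKO replicates 1 to 3 (0.74, adjusted p = 0.0612). Both had groups that did not overlap, Dkk2 lower and Fzd10 higher in cKO.

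The RUNX transcription factors act in cartilage maturation and bone formation, and Cbfb is their DNA-binding partner. Runx3 had 2.31, 1.80 and 1.89 in cHet and 0.674, 1.16 and 0.977 in cKO replicates 1 to 3 (FPKM), so that each cKO library was below each cHet library. Its difference was −1.04 (SE 0.23, adjusted p = 0.0911) with 6 libraries and −0.84 (SE 0.19, adjusted p = 0.0676) without cKO replicate 1, and it passed in neither. Runx2 had 2.31, 1.62 and 1.79 in cHet and 1.10, 1.11 and 1.19 in cKO replicates 1 to 3 and differed by −0.67 (SE 0.20, adjusted p = 0.120). The cKO libraries of Runx2 were nearly equal, and all below the controls. Runx1 differed by −0.05 and Cbfb by −0.09 without cKO replicate 1. All 4 genes were below 0 in both fits, with medians of −0.503 and −0.38, and none passed. Their cHet polysome minus input median was 0.37.

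The median of the cartilage matrix genes had a different sign with and without cKO replicate 1. Otor, a small secreted protein of cartilage, had an FPKM of 15.8, 13.3 and 14.8 in cHet and 5.56, 7.06 and 9.14 in cKO replicates 1 to 3 and fell (log2 difference −0.86 without cKO replicate 1, SE 0.15, adjusted p = 0.0442, and −1.03 with it). Papss2, which makes the sulfate donor for proteoglycans, had 5.39, 4.43 and 6.63 in cHet and 2.32, 3.49 and 1.91 in cKO replicates 1 to 3, with no overlap and a difference of −1.04 (adjusted p = 0.0812) that did not pass. Cnmd, the cartilage glycoprotein chondromodulin, had 1.98, 1.67 and 1.40 in cHet and 1.80, 0.977 and 0.433 in cKO replicates 1 to 3 and differed by −1.22 (adjusted p = 0.0901), where cKO replicate 1 lay among the controls. Col9a1, a chain of a cartilage collagen, had 5.44, 5.40 and 7.63 in cHet and 24.5, 8.53 and 8.44 in cKO replicates 1 to 3, differing by 0.98 with 6 libraries and 0.48 without cKO replicate 1, which was far above the rest (adjusted p = 0.197 and 0.163). Over 10 cartilage matrix genes the median was 0.08 with 6 libraries and −0.36 without cKO replicate 1. Of the 10, 1 was called lower without cKO replicate 1, against 0.471% of all genes. The cHet polysome minus input median of this list was −1.48 and that of 16 other collagens −1.85, so most of these mRNAs were more abundant in control input than on control polysomes. The other collagens had medians of 0.46 and 0.16, with none called.

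Some further higher genes, chosen after their values were seen and drawn from no list, are Gpc3, Mmp2, B4gat1, Pomgnt2, Chst14, Chpf and Gja1. Gpc3, a cell-surface heparan sulfate proteoglycan that tunes growth factor signals, had an FPKM of 41.0, 49.2 and 47.7 in cHet and 278, 77.2 and 82.8 in cKO replicates 1 to 3. Its cKO replicate 1 stood far above the other cKO libraries, yet without it Gpc3 still rose by 0.80 (adjusted p = 0.0435). Mmp2, a matrix metalloprotease, had 21.0, 24.1 and 22.2 in cHet and 98.3, 35.0 and 45.4 in cKO replicates 1 to 3 and rose by 0.83 (adjusted p = 0.0451). B4gat1 and Pomgnt2 build the glycan of dystroglycan, and Chst14 and Chpf act on dermatan and chondroitin sulfate. B4gat1 had 10.7, 10.7 and 13.9 in cHet and 49.3, 24.3 and 23.4 in cKO replicates 1 to 3 and rose by 1.03 (adjusted p = 0.0398). Chst14 had 11.6, 12.47 and 14.96 in cHet and 40.5, 22.8 and 23.7 in cKO replicates 1 to 3 and rose by 0.84 (adjusted p = 0.0433). Pomgnt2 and Chpf rose by 1.04 and 0.72 (adjusted p = 0.0439 and 0.0415). Gja1, the gap junction protein connexin 43, had 10.3, 12.3 and 12.04 in cHet and 42.8, 19.2 and 24.8 in cKO replicates 1 to 3 and rose by 0.92 (adjusted p = 0.0433). In Gpc3, Mmp2, B4gat1, Chst14 and Gja1 cKO replicate 1 was the highest library, and the other cKO libraries were also above every control. Their cHet polysome minus input differences were −2.49, −1.58, −0.80, −0.79 and −1.26, all toward input, the side to which the cKO libraries lay, and the part of this in their rises was not tested.

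Other genes among the 15 with the largest rises at a mean FPKM of at least 5, and in no group above, follow. Below that level Dmrta2 and Apba2, chosen after their values were seen, rose by 2.21 and 1.46 (adjusted p = 0.0498 and 0.0487). Inka1, an inhibitor of a p21-activated kinase, was abundant, with an FPKM of 92.9, 67.7 and 82.1 in cHet and 191, 153 and 252 in cKO replicates 1 to 3 (log2 difference 1.29 without cKO replicate 1, SE 0.22, adjusted p = 0.0446, and 1.28 with it). Prr7, a transmembrane adaptor, had 21.2, 23.3 and 18.7 in cHet and 36.6, 47.1 and 65.9 in cKO replicates 1 to 3 (log2 difference 1.40 without cKO replicate 1, SE 0.17, adjusted p = 0.0398, and 1.20 with it). In both genes cKO replicate 3 was highest, not replicate 1. Tigd2, a gene derived from a pogo transposase, had 6.05, 5.29 and 6.16 in cHet and 12.6, 13.3 and 14.98 in cKO replicates 1 to 3, and the cKO libraries differed little from each other (log2 difference 1.27 without cKO replicate 1, SE 0.12, adjusted p = 0.0398, and 1.21 with it). Fkbpl, an immunophilin-like protein, had 7.86, 6.20 and 7.30 in cHet and 18.8, 14.8 and 21.2 in cKO replicates 1 to 3 and rose by 1.31 (adjusted p = 0.0398). Med18, a Mediator subunit, had 13.0, 8.62 and 11.9 in cHet and 27.8, 21.0 and 28.1 in cKO replicates 1 to 3 and rose by 1.14 (adjusted p = 0.0446). All 3 differed by more than 1 log2 unit. Lcmt2, a tRNA-modifying methyltransferase, had 3.29, 3.11 and 2.57 in cHet and 11.6, 6.29 and 7.61 in cKO replicates 1 to 3 and rose by 1.19 (adjusted p = 0.0398). Sh3bp4, an endocytic adaptor, had 5.68, 5.04 and 6.84 in cHet and 18.9, 12.45 and 12.8 in cKO replicates 1 to 3 and rose by 1.11 (adjusted p = 0.0398). Tmem132c, a membrane protein, had 22.3, 19.3 and 32.2 in cHet and 79.5, 52.6 and 62.7 in cKO replicates 1 to 3 and rose by 1.25 (adjusted p = 0.0439). These 8 genes were higher in every cKO library than in any cHet library, as were 17.9% of all genes. Groups apart were part of the naming rule, so their separation is no further support. Clp1 and Lsm10, chosen after their values were seen, act in RNA 3′ end and histone pre-mRNA processing. Clp1 had 5.76, 6.51 and 5.66 in cHet and 18.03, 10.3 and 11.7 in cKO replicates 1 to 3 and rose by 0.87 (adjusted p = 0.0398). Lsm10 had 34.1, 39.2 and 33.7 in cHet and 47.1, 59.6 and 68.5 in cKO replicates 1 to 3 and rose by 0.84 (adjusted p = 0.0416). The groups did not overlap for either.

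Among lists chosen with earlier results of these data known, the one with the most genes called lower was that of the replication-dependent histones. Their mRNAs are made in S phase and end not in a poly(A) tail but in a conserved stem-loop that sets their processing, translation and decay. The stem-loops of the transcripts of Hist1h2bj, which fell, and of Hist3h2a, which also fell, are printed because they define the class, with that of Hist1h3a, a gene outside the naming rule, for comparison (GENCODE M21 transcripts, 26 bases, 5′ to 3′, the stem-loop in capitals).
Hist1h2bj: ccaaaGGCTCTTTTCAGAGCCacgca
Hist3h2a: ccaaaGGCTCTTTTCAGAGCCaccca
Hist1h3a: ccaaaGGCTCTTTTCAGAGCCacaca
The conserved 16-base stem-loop, with the variants known at its degenerate bases, was searched on the transcript strand, and 37 of the 51 tested histone genes held it in an annotated transcript, against 40 of 11306 protein-coding genes tested (0.354%). Several histone models end at the stop codon, so a missing stem-loop there says only that the letters are not in the model. In Hist3h2a the stem-loop begins at base 488 of a 2146-base transcript that runs 1643 bases past it and holds an AATAAA in its last 60 bases. Hist2h2be has a 2620-base transcript with an AATAAA near its end and no match.

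Hist2h2be (ENSMUSG00000068854, mm10 chr3:96221119-96223738, plus strand, 1 exon) had an FPKM of 10.1, 10.1 and 10.95 in cHet and 3.67, 5.57 and 4.40 in cKO replicates 1 to 3. Every cKO library was below 6 and every cHet library above 10, and Hist2h2be fell (log2 difference −1.05 without cKO replicate 1, SE 0.13, adjusted p = 0.0398, and −1.19 with it). Hist1h2bl had 4.84, 5.86 and 6.65 in cHet and 2.56, 2.71 and 2.49 in cKO replicates 1 to 3 (log2 difference −1.11 without cKO replicate 1, SE 0.15, adjusted p = 0.0398, and −1.12 with it). Hist1h2bj had 13.2, 15.9 and 15.5 in cHet and 3.07, 7.61 and 7.43 in cKO replicates 1 to 3, and fell by 0.97 (adjusted p = 0.0398). Both H2B genes were lower in all 3 cKO libraries. Hist1h3h, an H3 gene, had 28.6, 24.5 and 21.6 in cHet and 7.55, 13.4 and 13.6 in cKO replicates 1 to 3 and fell by 0.87 (adjusted p = 0.0433). Hist3h2a, an H2A gene, had 3.604, 3.902 and 4.02 in cHet and 1.65, 2.03 and 2.37 in cKO replicates 1 to 3 and fell by 0.78 (adjusted p = 0.0444). Of 51 tested histone genes 5 fell and none rose, against 0.471% of all genes called lower and 0.785% called higher. With 6 libraries 45 were below 0 and 38 without cKO replicate 1, against 47.1% and 45.9% of all genes. The histone medians were −0.55 and −0.42. The groups did not overlap in the lower direction for 24 of the 51 with 6 libraries, against 13.5% of all genes. Histone genes have near-identical copies, so reads may be split between them and single values are uncertain. Their cHet polysome minus input median was 0.90, and their median difference between genotypes in input was −0.35. Of other S phase genes, none of 30 replication and licensing genes passed, and their median was 0.07.

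Crabp1 and Lgals1 were the most abundant of the lower genes named here. Crabp1 (ENSMUSG00000032291, mm10 chr9:54764748-54773110, plus strand, 4 exons), which binds retinoic acid in the cytoplasm, had an FPKM of 502, 543 and 523 in cHet and 185, 332 and 274 in cKO replicates 1 to 3. Each cKO library was below 340 and each cHet library above 500, and Crabp1 fell (log2 difference −0.79 without cKO replicate 1, SE 0.14, adjusted p = 0.0455, and −1.03 with it). Lgals1, the beta-galactoside-binding galectin 1, had 1445, 1292 and 1243 in cHet and 619, 785 and 752 in cKO replicates 1 to 3 (log2 difference −0.79 without cKO replicate 1, SE 0.14, adjusted p = 0.0455, and −0.89 with it). Of 16 tested genes of retinoic acid handling Crabp1 alone passed, against 0.471% of all genes called lower. Of the 16, 12 were below 0 without cKO replicate 1 (median −0.18, cHet polysome minus input 0.33). The degrading enzyme Cyp26b1 had 14.01, 13.8 and 17.1 in cHet and 26.4, 20.5 and 21.4 in cKO replicates 1 to 3 (0.49, adjusted p = 0.104). Uchl1, a neuronal deubiquitinase, had 47.1, 35.7 and 39.8 in cHet and 28.7, 22.4 and 24.4 in cKO replicates 1 to 3, and fell by 0.80 (adjusted p = 0.0487). Gng3, a neuronal G protein gamma subunit, had 8.59, 9.42 and 7.72 in cHet and 1.02, 4.67 and 3.08 in cKO replicates 1 to 3, and fell by 1.151 (adjusted p = 0.0415). Cbln4, a secreted synaptic organizer, had 6.38, 6.32 and 4.06 in cHet and 1.146, 2.57 and 1.91 in cKO replicates 1 to 3, and fell by 1.27 (adjusted p = 0.0446). These 3 genes of neuronal function thus fell while Tubb3, a neuronal tubulin among the neural markers, had 2.38, 2.24 and 2.49 in cHet and 10.4, 4.61 and 5.50 in cKO replicates 1 to 3 and rose by 1.06 (adjusted p = 0.0398).

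Bcl2 (ENSMUSG00000057329, mm10 chr1:106538178-106714274, minus strand, 2 exons), the anti-apoptotic mitochondrial protein, had an FPKM of 8.22, 8.06 and 8.01 in cHet and 2.80, 5.24 and 4.03 in cKO replicates 1 to 3. The 3 cHet libraries were nearly equal and all cKO libraries were lower (log2 difference −0.80 without cKO replicate 1, SE 0.13, adjusted p = 0.0439, and −1.03 with it). Its relative Bcl2l1 had 35.6, 36.7 and 35.4 in cHet and 34.9, 40.7 and 52.3 in cKO replicates 1 to 3 and differed by 0.36 (adjusted p = 0.195), which did not pass. Nqo1, a quinone reductase, had 5.29, 3.95 and 5.78 in cHet and 4.26, 2.69 and 1.96 in cKO replicates 1 to 3 and fell by 1.07 without cKO replicate 1 (adjusted p = 0.0487), which itself lay among the controls. Mmab, a mitochondrial enzyme of cobalamin use, had 21.2, 19.9 and 19.6 in cHet and 7.23, 12.2 and 9.93 in cKO replicates 1 to 3 and fell by 0.87 (adjusted p = 0.0398). Stk32b, a kinase, had 5.47, 5.14 and 5.02 in cHet and 1.87, 3.05 and 2.11 in cKO replicates 1 to 3 and fell by 1.01 (adjusted p = 0.0433). Both were below every control in each cKO library, as the naming rule asked. Med22, a Mediator subunit, had 48.1, 40.1 and 52.98 in cHet and 23.0, 28.1 and 23.9 in cKO replicates 1 to 3 and fell by 0.85 (adjusted p = 0.0473), opposite to Med18. Among the genes with the smallest p over 6 libraries were also Tmem186, Cthrc1 and Wdr5b. Cthrc1, a secreted modulator of WNT signals, had 29.4, 26.9 and 29.6 in cHet and 15.2, 18.6 and 15.97 in cKO replicates 1 to 3 (−0.79, adjusted p = 0.0845 with 6 libraries). Tmem186 differed by −0.74 and Wdr5b by −0.96 with 6 libraries, and all 3 fell without cKO replicate 1 (−0.73, −0.71 and −0.78, adjusted p = 0.0443, 0.0415 and 0.0398).

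**Figure D4:**
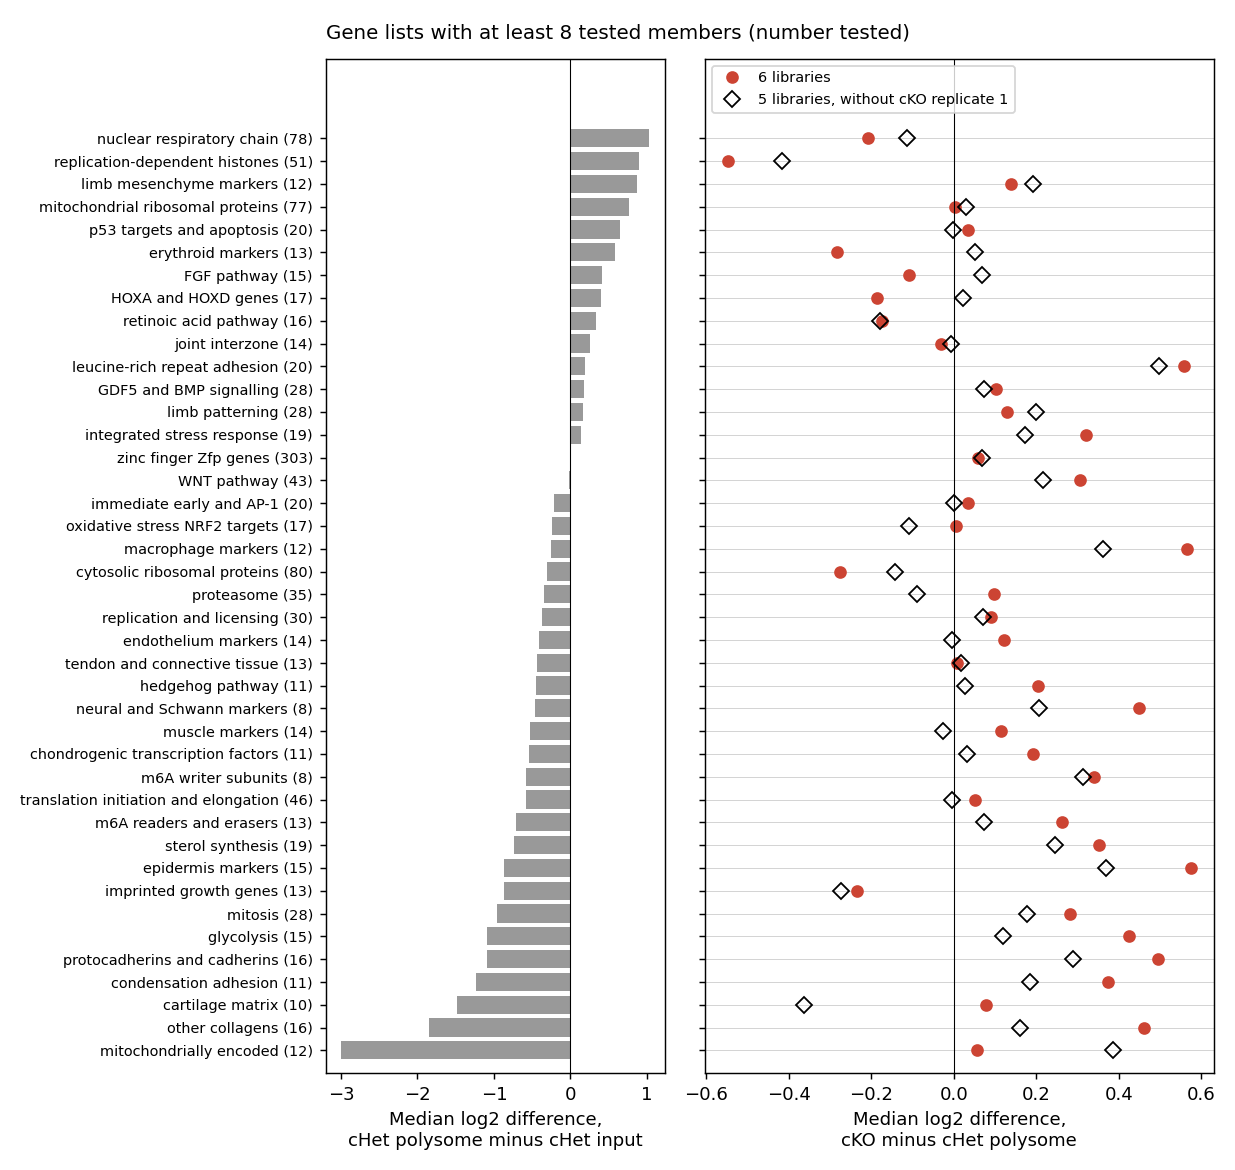
Median log2 difference of each gene list with at least 8 tested members: cHet polysome minus cHet input on the left (bars), and cKO minus cHet on polysomes on the right, with 6 libraries (circles) and without cKO replicate 1 (diamonds). Leucine-rich repeat genes lie furthest right without cKO replicate 1, at 0.50, and histones furthest left, at −0.42.

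Genes of the ribosome itself did not pass. Cytosolic ribosomal protein mRNAs carry a 5′ terminal oligopyrimidine tract, a C followed by pyrimidines at the start site, through which growth signals set their translation. Starts with such a tract are shown for 2 members, as the first 20 bases of the RefSeq transcript (GRCm38.p6, bases 251 to 270 of the windows chr7:4792715-4793014 and chr19:6057697-6057996, both plus strand), with the tract in capitals.
Rpl28: CTCTTTCCgtctccggccgc
Fau: CTTCCTCTTTCTTgactcca
A C followed by pyrimidines to a run of at least 4 was at the annotated start of 14 of 59 ribosomal protein genes with an entry (23.7%), against 3.76% of all promoters of the same table, a share that depends on the annotated base. Rpl28 had 493, 503 and 465 in cHet and 273, 359 and 393 in cKO replicates 1 to 3 (FPKM), a difference of −0.53 with 6 libraries and −0.37 without cKO replicate 1 (adjusted p = 0.168 and 0.165). Fau had 1002, 887 and 992 in cHet and 624, 695 and 836 in cKO replicates 1 to 3, a difference of −0.43 and −0.33 (adjusted p = 0.207 and 0.251). Of 80 tested ribosomal protein genes, 69 were below 0 with 6 libraries and 60 without cKO replicate 1, with medians of −0.27 and −0.14, and 0 passed in either fit. Their cHet polysome minus input median was −0.30. The 14 genes with the tract at the annotated start had medians of −0.29 and −0.17, and the 45 with another annotated start −0.25 and −0.12. Among the 45, Rpl18 and Rpl12 have a pyrimidine run just after the annotated base. The split is thus by annotation and does not compare mRNAs with and without the tract. Ribosomal protein genes have many processed pseudogenes that can take their reads. The elongation factors Eef1a1 and Eef2, whose mRNAs are also of this class, differed in the other direction and did not pass. Eef2 had 419, 464 and 413 in cHet and 714, 604 and 575 in cKO replicates 1 to 3, a difference of 0.45 (adjusted p = 0.118), and Eef1a1 differed by 0.52 (adjusted p = 0.117). The median of the 46 initiation and elongation factors was 0.05 with 6 libraries and −0.00 without cKO replicate 1, beside −0.58 in cHet polysome minus input.

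Glycolysis and mitosis genes, more abundant in control input than on control polysomes in the median, had smaller medians without cKO replicate 1. Glycolysis genes (−1.09 in cHet polysome minus input) had a median of 0.42 with 6 libraries and 0.12 without cKO replicate 1, and mitosis genes (−0.95) had 0.28 and 0.18. None of the 15 and 28 genes tested passed. The nuclear genes of the respiratory chain (1.03) had medians of −0.21 and −0.11, and none of 78 passed. Of 13 imprinted growth genes 10 were below 0 without cKO replicate 1 and none passed, with medians of −0.23 and −0.27 beside a cHet polysome minus input median of −0.87. Of 77 mitochondrial ribosomal protein genes 1 was called higher, Mrps2, against 0.785% of all genes. Mrps2 had 35.4, 31.4 and 40.3 in cHet and 65.5, 57.3 and 62.4 in cKO replicates 1 to 3 (FPKM, difference 0.75, adjusted p = 0.0498). Of 303 Zfp zinc finger genes, which encode mostly transcription factors, 3 were called higher, a share near the 0.785% of all genes. These were Zfp467, Zfp628 and Zfp703, which rose by 0.72, 0.71 and 0.69. Zfp467 had the tightest values, 8.40, 8.46 and 8.42 in cHet and 13.9, 13.5 and 14.3 in cKO replicates 1 to 3 (adjusted p = 0.0407).

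Markers of the tissue and of other cell types were present in both genotypes. The 12 limb mesenchyme markers summed to 1544 to 1720.0 FPKM in cHet and 1438, 1887 and 2149 in cKO replicates 1 to 3, so that cKO lay on both sides of the controls, beside a cHet polysome minus input median of 0.86. Epidermal markers summed to 199.8 to 206 FPKM in cHet and 501, 276 and 259.9 in cKO replicates 1 to 3, highest in the library nearest to input, and 14 of 15 tested were above 0 (median 0.37 without cKO replicate 1, cHet polysome minus input −0.87). Krt14, a basal keratin, had 44.9, 49.5 and 45.5 in cHet and 112, 67.5 and 62.5 in cKO replicates 1 to 3, and did not pass (adjusted p = 0.0861). The cKO sums of epidermal markers were above all cHet sums even in replicates 2 and 3, and the part of this in Cdh3 and other epithelial genes was not tested. Macrophage markers summed to 59.9 to 66.9 FPKM in cHet and 110.4, 79.0 and 85.9 in cKO replicates 1 to 3, with 11 of 11 tested above 0 (median 0.36, cHet polysome minus input −0.25 over 12 tested with 6 libraries). Grn, a lysosomal protein abundant in macrophages and chosen after its values were seen, had 7.53, 8.25 and 9.93 in cHet and 35.4, 14.96 and 14.8 in cKO replicates 1 to 3 and rose by 0.80 (adjusted p = 0.0446). Whether the macrophage markers have a part in it was not tested. Endothelial markers summed to 104 to 119.7 FPKM in cHet and 144, 97.9 and 126 in cKO replicates 1 to 3, and muscle markers to 444 to 512 FPKM in cHet and 627, 463 and 491 in cKO replicates 1 to 3, and the groups overlapped in both. Erythroid markers summed to 16443 to 31518 FPKM in cHet and 10756, 25963 and 20488 in cKO replicates 1 to 3, also overlapping. No marker of these 7 lists that is in the table was at 0 in all 6 libraries. Tubb3 was the only marker that passed, against 0.785% of all genes called higher without cKO replicate 1.

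Gene structure was not used to choose the called genes, and it is described here without a test. Exon number, lengths and motif density are those of the GENCODE M21 protein-coding transcript with the longest coding sequence. As background, exon junction complexes keep m6A away from splice sites, so that the mark is found mostly in long internal exons, last exons and genes with few introns. The median exon number was 4 in the 93 protein-coding genes called higher and 4 in the 37 called lower, against 9 in all 11306 tested. Genes with 1 or 2 exons made up 33.3% of those called higher (31 of 93), 24.3% of those called lower (9 of 37) and 905 of all 11306 tested. Among genes of 2 exons 22 of 565 were called higher (3.89%) and 2 lower (0.354%), while among genes of more than 16 exons 4 of 2176 were called higher (0.184%) and none lower. Of 340 single-exon genes 9 were called higher (2.65%) and 7 lower (2.06%), the 5 histone genes among the latter. Exon number also went with the difference in input, where medians were 0.15, 0.22 and −0.12 in genes of 1, 2 and more than 16 exons. On polysomes without cKO replicate 1 the medians of these classes were 0.10, 0.15 and 0.05. The cHet polysome minus input median was 0.39 in genes of 1 exon, 0.43 in genes of 2, −0.18 in genes of 9 to 16 and −0.69 in genes of more than 16. The called genes need not follow their class: it was −0.84 for Vasn, −0.81 for Rbm15 and 1.03 for Inka1, all of 2 exons. The median longest exon was 1802 bases in genes called higher, 1241 in genes called lower and 1348 in all. Coding sequences were 1587, 648 and 1335 bases long in the median, and 3′ untranslated regions 731, 646 and 959.

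GGACT, the commonest m6A context in mammals, was searched on the transcript strand of the same transcripts. Its median density was 1.35 per kb in genes called higher, 1.05 in genes called lower and 1.05 in all, beside a median GC content of 54.1%, 51.3% and 50.8%. Of all 11306 transcripts 91.2% held at least 1 GGACT, so a match alone marks nothing, and methylation was not measured here. The match nearest to the end of the coding sequence is shown for 3 called genes of 2 exons, each with 10 bases on either side and the GGACT in capitals.
Vasn: gtggggccagGGACTggacccctgg
Rbm15: gaggtgatcgGGACTtgcccagcag
Inka1: tggaagcagaGGACTggacggcagc
The matches begin at base 2070 of 2829 in Vasn, 2480 of 4343 in Rbm15 and 627 of 1025 in Inka1, all within the coding sequence, and these transcripts hold 5, 2 and 3 matches.

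**Figure D5:**
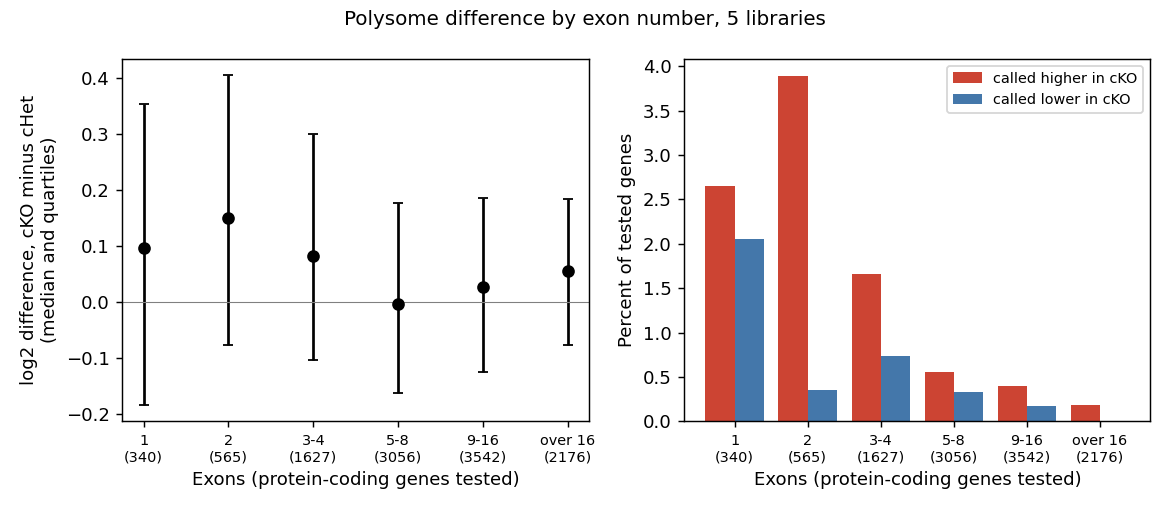
Polysome difference by exon number for the 11306 protein-coding genes tested without cKO replicate 1: median and quartiles of the log2 difference on the left, and the percent of each class called higher (red) or lower (blue) on the right, with the number of genes under each class. The share called higher is 3.89% in genes of 2 exons and 0.184% in genes of more than 16.

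Input RNA of the same lysates was used to ask whether the differences were those of polysome loading. No gene passed between genotypes in input (limma, 0 of 12977 genes tested, lowest adjusted p 0.141, 1943 at an unadjusted p under 0.05). For none did the polysome difference pass as unlike the input difference with 12 libraries (limma, 0 of 13610 genes, lowest adjusted p 0.790). There 638 genes had an unadjusted p under 0.05, and without cKO polysome replicate 1 the count passing was 0 of 13559. Not passing with so few libraries does not show that a gene was unchanged. Neither comparison was run with another tool. Of the genes called higher on polysomes, 99 of 99 with an input value were above 0 in input, against 65.7% of all genes above 0 on polysomes. Of those called lower, 54 of 57 were below 0 in input, against 72.2%. The median input difference was 0.82 in the genes called higher and −0.64 in those called lower, beside 0.85 and −0.85 on polysomes. For the named genes the input difference was 1.13 for Vasn, 1.71 for Lrrc4b, 0.84 for Rbm15, 1.13 for Msx2, −0.81 for Hist2h2be and −1.03 for Bcl2. It was smaller for Lrrn3 (0.31) and Gpc3 (0.25), and the difference between the fractions did not pass for either. Lrrn3 input was 2.51, 2.75 and 2.82 in cHet and 5.07, 3.45 and 2.16 in cKO replicates 1 to 3 (FPKM). Only cKO input replicate 3 was below the controls, and of the input libraries it lay nearest to polysomes (position 0.146). In control lysates the called higher genes had a cHet polysome minus input median of −0.30 and the called lower genes one of 0.74. The called higher genes were thus, in the median, more abundant in control input and the called lower genes on control polysomes, and the part of the position of the cKO libraries in this was not tested.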

How the data were processed

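RNA-seq of 6 polysome and 6 input libraries was analysed. The authors deposited FPKM for 54532 genes with gene lengths. HISAT2 2.0.5, featureCounts 1.5.0-p3 and the mm10 build were used, per the submitters' processing notes, and Quick RNA Microprep and NEBNext Ultra II kits, per the labels' protocols. How rRNA was removed and whether the libraries keep strand is not known from these sources, so a gene and its antisense partner cannot be told apart. Their FPKM values multiplied by gene length gave whole reads within 0.01 for 100% of values, which gives the depths.

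Genes with an FPKM of at least 1 in at least 3 fitted libraries were tested with limma 3.58.1 (R 4.3.3) on log2(FPKM + 0.1), with an intensity trend, two-sided, Benjamini-Hochberg over all tested genes. Scripts were tested on simulated data. An exact permutation test of 3 against 3 cannot go below p = 0.1. Named genes were Mettl14, Gdf5 and the RUNX genes. To these came the 8 protein-coding genes per direction with the smallest p over 6 libraries, and the 15 per direction with the largest change among those called over 5, all with groups apart and a mean FPKM of at least 5. That the groups of these genes did not overlap in the fitted libraries was thus fixed by the choice. Up to 4 members per list with the smallest p, and members that passed, could be named. Others are said to be chosen after their values were seen. Members and lists were chosen with earlier results of these data known. Voom alternatives used TMM factors on the recovered reads.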

Additional observations from a re-analysis of the deposited data

How the results depend on the processing

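The genes called changed kept no stable number across settings. With 6 libraries the count of 0 became 2621 with library quality weights, 217 when the input libraries shared the fit, and 1 with library position as a covariate, and it ranged from 0 to 231 when each library was left out. Without cKO replicate 1 the count of 160 became 0 with no filter on low values, 261 with an FPKM of at least 5, 263 with protein-coding scaling, 528 with voom, 871 with quality weights, 0 when input libraries shared the fit, 0 with library position as a covariate and 55 with a log2 change of at least 1 in addition, and it ranged from 0 to 416 over the libraries left out, where a lone cKO library is assumed to vary like the others. The cause was not tested, except that no filter tests more genes (22570). Library position was added after seeing the data. It was lower in every cKO than in every cHet polysome library, so its counts cannot tell genotype from position. The count of genes called for a polysome difference unlike the input difference stayed at 0 in every alternative run.

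Replicate numbers only number the samples: same-numbered polysome libraries deviated together at −0.08, 0.17 and −0.28 (Pearson, across genes). The replicate block gave 42 genes with 6 libraries, and the lysate block 0 for the difference between fractions. Without cKO replicate 1 the block held cHet replicate 1 alone and so took that library out of the comparison. Its count of 173 thus rests on replicates 2 and 3 of each genotype and is not a result of 5 libraries. Leaving out cHet replicate 1 without a block called 7. Mettl14, near 0 throughout, changed sign: its 6-library difference was 0.027 with protein-coding scaling, 0.013 with quality weights and −0.097 to 0.032 over the libraries left out, and its 5-library difference was −0.015 with quantile normalization, −0.0014 with the replicate block and −0.076 to 0.14 over the libraries left out. A quasi-likelihood test of the recovered reads was planned and not run. The shallowest library, cHet replicate 2, had 10349912 reads, where 1 read in a 1 kb gene was worth 0.0930 FPKM.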

Other observations

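Noncoding genes and pseudogenes were frequent among the genes called lower without cKO replicate 1, with 23 of 60 against 7 of 100 among those called higher and 11.1% of all 12738 genes tested. They were chosen for description after their values were seen. The lower ones included 10 processed pseudogenes, 4 antisense genes, 3 lincRNAs and 2 snoRNAs. The filter asked for an FPKM of at least 1 in at least 3 fitted libraries. The 3 cHet libraries could meet it alone, and the 2 cKO libraries could not. A low gene could thus be tested through cHet alone but not through cKO alone, and the part of this in the contrast was not tested. Gm13781 (antisense) was at 55.6, 52.0 and 43.1 in cHet and 7.21, 27.5 and 19.7 in cKO replicates 1 to 3 (−1.10, adjusted p = 0.0433). Gm13111, also antisense, had 11.5, 12.48 and 13.3 in cHet and 1.69, 6.83 and 3.80 in cKO replicates 1 to 3 (−1.27, adjusted p = 0.0446). The lincRNA Gm27202 had 7.90, 9.45 and 9.98 in cHet and 1.47, 4.19 and 2.14 in cKO replicates 1 to 3 (−1.56, adjusted p = 0.0433). In all 3 the cKO libraries were each below the lowest cHet library. Strand is not stated, so reads of an overlapping gene cannot be told apart from theirs.

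The call with the largest difference, the snoRNA Gm22771, was listed at 0 in cKO replicates 2 and 3 but had 1.46 FPKM in cKO replicate 1, within the 1.02 to 3.38 of the cHet libraries, so it rests on low values. The processed pseudogene Gm7535 had 3.56, 2.98 and 2.15 in cHet and 2.05, 0.517 and 0.253 in cKO replicates 1 to 3. Evx1os, an antisense RNA of the homeobox gene Evx1, had 3.73, 3.55 and 3.44 in cHet and 1.147, 2.21 and 2.10 in cKO replicates 1 to 3 and fell by 0.70 (adjusted p = 0.0471).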
